A study of Homo sapiens with 6 samples.

Results

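The collagen and laminin chains of U87MG cells, an established human glioblastoma line, were examined in poly(A) RNA-seq counts. The members were all protein-coding genes whose symbol is COL, a number, A and a number, or LAMA, LAMB or LAMC and a number. This name rule gave 56 genes, 44 collagen and 12 laminin chains, of 65988 gene identifiers. Of these, 36 members (26 collagens and 10 laminins) passed the filter on low counts and were tested, among 16105 genes tested in all.

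All 6 libraries came from wild-type U87MG cells in serum-containing medium. The control group received vehicle (n = 3 libraries) and the treated group 2 µM RSL3 (n = 3 libraries), an inhibitor of the lipid peroxide reductase GPX4 that triggers ferroptosis. The study describes a treatment of 24 h, while the sample labels give no time. The comparison was made to search for genes that set sensitivity to ferroptosis. The study describes its results in general as coming from biologically independent experiments or samples. The labels of these libraries do not say whether they were separate cultures, and if they were not, the p-values measure the spread between these libraries, which may be technical. Total counts lay between 27813462 and 43306335 per library, and the scaling factors for library size lay between 0.995 and 1.01. GFAP, an astroglial marker, was low with 82 to 154 counts per library, and S100B and SOX2 held 0 to 2, whereas VIM and CD44, which mesenchymal glioma cells make, held 47847 to 88334 and 15961 to 30884.

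Collagens are trimers of chains that wind into a triple helix. Glycine opens each triplet of residues in the helix, because no larger side chain has room at its centre. Fibrillar collagens build the fibres of the interstitial matrix, type IV collagen forms the network of basement membranes, type VI forms beaded filaments next to cells, and type VII forms the fibrils that anchor epithelial basement membranes to the tissue beneath. Laminins are cross-shaped trimers of an alpha, a beta and a gamma chain that organise basement membranes and bind integrins and dystroglycan. In the brain, these proteins are concentrated around vessels and at the glial border, and glioma cells attach to and migrate along them.

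The coding sequences carry the glycine repeat of the helix, whose longest run sets the fibrillar chains and the laminins apart from the other classes. The stretches below are the first 81 bases of the longest unbroken run of glycine triplets in the spliced coding sequence. They come from 1 anchoring, 1 fibrillar, 1 basement membrane and 1 beaded filament chain, each 5′ to 3′ on the coding strand. Capitals mark the glycine codon (GGN) that opens each triplet. The glycine codons at other places of a triplet, in COL5A1 and COL6A3, are in lower case. The sequences are those of the GENCODE v44 transcripts of GRCh38, and where a stretch crosses 2 exons the coordinates also span the intron between them.
COL7A1, chr3:48569402-48569627, minus strand, exons 102 to 103: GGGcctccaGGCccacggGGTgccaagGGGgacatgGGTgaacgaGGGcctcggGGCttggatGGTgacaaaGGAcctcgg
COL5A1, chr9:134752601-134753885, plus strand, exons 14 to 15: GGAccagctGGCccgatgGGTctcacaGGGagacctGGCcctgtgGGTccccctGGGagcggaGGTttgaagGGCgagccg
COL4A2, chr13:110473069-110473149, plus strand, exon 29: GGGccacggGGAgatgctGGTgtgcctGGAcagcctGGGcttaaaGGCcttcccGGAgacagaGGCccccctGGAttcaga
COL6A3, chr2:237357347-237357852, minus strand, exons 22 to 23: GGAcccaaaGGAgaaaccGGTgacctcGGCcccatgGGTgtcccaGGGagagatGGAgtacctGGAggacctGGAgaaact

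The longest run of such triplets was 338 in COL5A1, 75 in COL7A1, 66 in COL4A2 and 45 in COL6A3. Over the 11 fibrillar chains it lay between 216 and 343, with a median of 338, and in the 8 basement membrane collagens between 30 and 66. The collagens outside the fibrillar class overlapped in it, with 37 to 87 in beaded filament, 32 to 113 in fibril-associated and 40 to 56 in transmembrane chains. The 12 laminin chains, which have no collagen helix, had runs of 2 to 4 triplets. The helix also shows in the exons of many collagens, but not of all. The share of coding exons whose length is a multiple of 9 bases, the length that codes for 1 triplet, had a median of 83.3% over the fibrillar chains, 57.8% over all collagens and 14.8% over the laminins. It was 0% in COL8A1, COL8A2 and COL10A1 despite runs of 60 or 61 triplets, and 20% in COL12A1, near the 18.5% of LAMA2. COL7A1 had 119 exons in its canonical transcript, of which 118 were coding and 78 (66.1%) were multiples of 9 bases long.

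**Figure D1:**
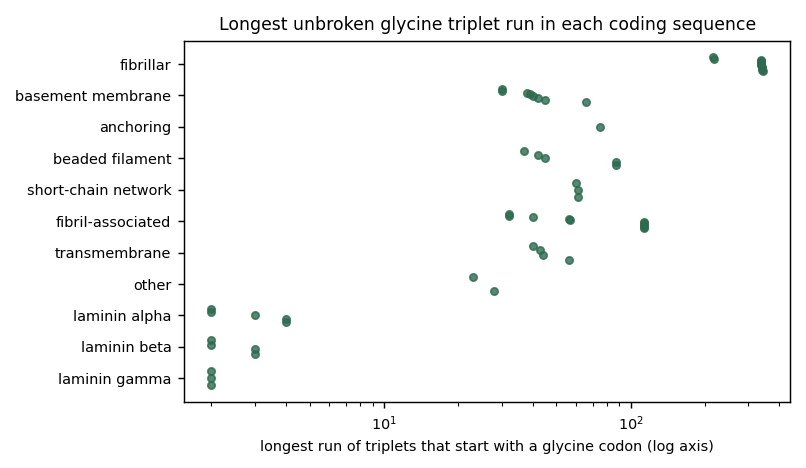
Longest unbroken run of glycine triplets in the coding sequence of each of the 56 chains, in triplets on a log axis, with 1 point per chain and 1 row per class. The fibrillar chains sit between 216 and 343 triplets, COL7A1 at 75 and all laminins at 4 or below.

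The members of this family moved in both directions after RSL3. At an adjusted p under 0.05 (edgeR's quasi-likelihood F test, Benjamini-Hochberg adjustment over all genes tested), 18 of the 36 tested members were called, against 25.6% of all genes tested. Of these 18, 9 rose, against 12.9% of all genes, and 9 fell, against 12.7% of all genes. The median log2 fold change of RSL3 against control was 0.02 over the 36 members and -0.00439 over all genes tested. In 21 members every treated library lay on 1 side of every control library (12 higher and 9 lower after RSL3), which held for 38.6% of all genes tested. Where the log2 fold change also had to reach 0.5 in either direction, 9 members were called (6 higher and 3 lower), against 4.77% of all genes. COL8A2 and COL10A1 are among the higher members in each of these counts. They passed the filter on low counts only through the RSL3 libraries, so the test favours a rise in them. Of the 29 members with a mean of at least 100 normalized counts, 16 were called, against 33.1% of all genes above that mean. The counts come from bulk RNA, in which fewer cells of a kind and less RNA per cell cannot be told apart.

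**Figure D2:**
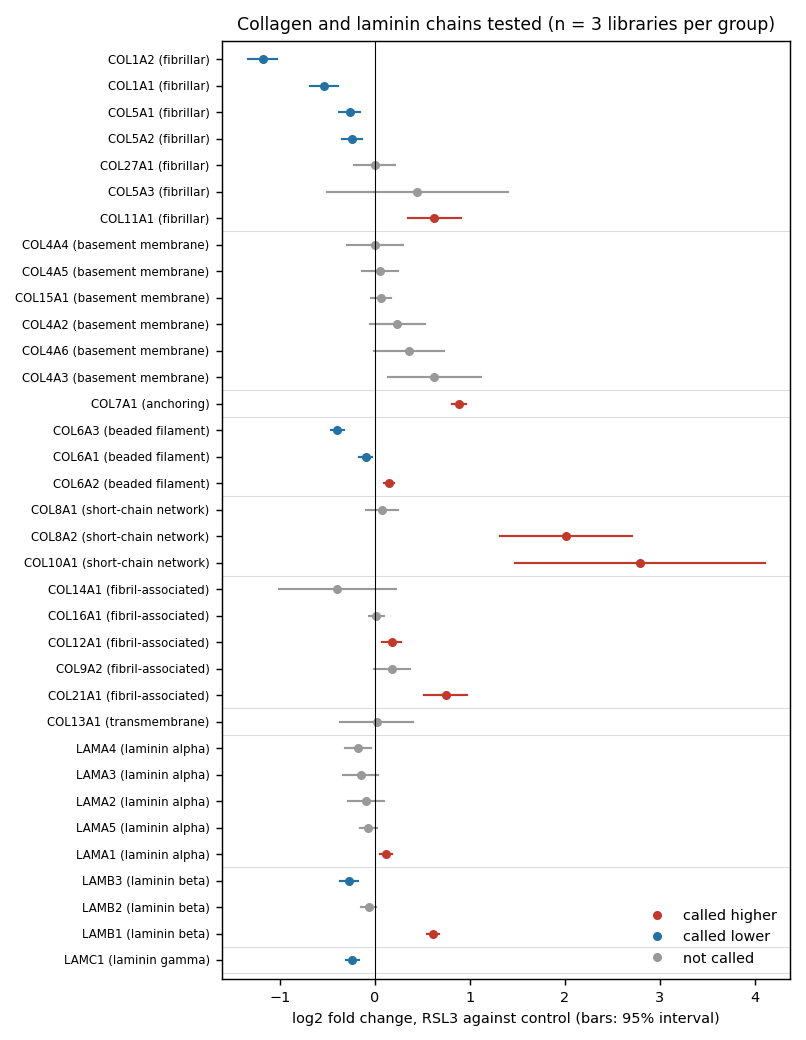
Log2 fold change of RSL3 against control for the tested chains named in the text, grouped by class, with bars for the 95% interval of the fit (n = 3 libraries per group) and colours for the call after adjustment over all genes. COL1A2 stands farthest below 0 at -1.18, COL7A1 at 0.89 has a narrow interval, and COL8A2 and COL10A1 have wide intervals. COL4A3 and LAMA4 are not called although their intervals, which are not adjusted for the number of genes, lie off 0.

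COL7A1 (ENSG00000114270, chr3:48564073-48595329, minus strand), the only chain of type VII collagen, rose. Its normalized counts, which are read counts brought to the average library size, were 4851, 4920 and 5300 in control replicates 1 to 3. In RSL3 replicates 1 to 3 they were 9140, 9542 and 9221. The lowest treated library thus lay far above the highest control library. The mean went from 5024 ± 242 to 9301 ± 212 (SD, n = 3 each), a 1.85-fold rise (log2 fold change 0.89 ± 0.04 SE, edgeR adjusted p = 1.17e-12), and its p was the smallest of the 16105 genes tested. Type VII fibrils are secreted mainly by keratinocytes and fibroblasts of the skin, and the basal keratinocyte genes KRT5 and KRT14 held at most 1 count in any library here. With KRT10, which was not called, the 3 keratinocyte markers summed to 64.3 to 72.8 CPM (counts-per-million) in control and 72.6 to 77.2 after RSL3. MIR711, a microRNA gene, shares 0.323% of the exon bases of COL7A1.

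The 250 bases upstream of the COL7A1 start site are shown because this member had the smallest p (RefSeq, GRCh38.p14, chr3:48595330-48595579, minus strand, 5′ to 3′, with motif matches in capitals).
COL7A1 upstream: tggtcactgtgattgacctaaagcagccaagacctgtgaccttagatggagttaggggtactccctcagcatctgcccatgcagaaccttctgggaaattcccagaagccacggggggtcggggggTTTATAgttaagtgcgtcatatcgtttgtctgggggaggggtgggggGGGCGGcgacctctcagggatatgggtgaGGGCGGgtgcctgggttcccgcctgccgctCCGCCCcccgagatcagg
Both strands were searched for 4 motifs: GGGCGG (the GC box), TATAAA (the TATA box), TGANTCA (the AP-1 site) and TGACNNNGC (the core of the antioxidant response element). The window held 3 GC boxes and 1 TATAAA, which lay on the opposite strand, and no match to the other motifs. Of the 35116 upstream windows in the table, 42.6% held a GC box, 10.7% a TATA box, 6.57% an AP-1 site and 10.9% an antioxidant response element core. Among the 55 windows of the 41 members that the table covers, 32 held a GC box, 8 a TATA box, 3 an AP-1 site (COL10A1, LAMA3 and LAMB3) and 3 an antioxidant response element core (COL21A1, COL4A5 and COL4A6).

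Among the fibrillar chains, 7 of 11 were tested, 4 fell and 1 rose, against 12.7% and 12.9% of all genes tested. The median log2 fold change of the 7 was -0.24. The chains that fell were both chains of type I collagen, the main fibre of bone, skin and tendon, and 2 of the 3 chains of type V collagen, which sits inside type I fibrils and limits their width. COL1A2 (ENSG00000164692, chr7:94394895-94431227, plus strand), the alpha 2 chain of type I, held 7012, 6758 and 8095 normalized counts in control replicates 1 to 3 and 2876, 2967 and 3794 in RSL3 replicates 1 to 3. All treated libraries were below all controls, and the mean fell 2.27-fold, from 7288 ± 710 to 3212 ± 506 (log2 fold change -1.18 ± 0.07 SE, edgeR adjusted p = 2.22e-10). COL1A1, the alpha 1 chain, which makes up most of the type I trimer, held 1982, 1787 and 2330 in control and 1337, 1365 and 1526 after RSL3. Its mean fell 1.44-fold (log2 fold change -0.53 ± 0.07 SE, adjusted p = 6.97e-06), again with no overlap. COL5A1 went from 2074, 2058 and 2377 to 1721, 1861 and 1842 normalized counts (log2 fold change -0.26 ± 0.05 SE, adjusted p = 0.000589). COL5A2, its partner, went from 1382, 1421 and 1529 to 1276, 1185 and 1213 (-0.24 ± 0.05 SE, adjusted p = 0.00145). The 95% intervals of COL5A1 and COL5A2 lay nearer to 0 than those of COL1A1 and COL1A2, without overlap. Markers of fibroblasts and mural cells, which are rich in type I collagen, also moved. All 5 were tested and 3 fell (PDGFRB, DCN and LUM, with log2 fold changes of -0.22, -0.73 and -0.99), against 12.7% of all genes tested. The summed level of the 5 was 119 to 125 CPM in control and 96.6 to 104 after RSL3. The part of that shift in the fall of the fibrillar chains was not tested.

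COL11A1, the alpha 1 chain of type XI collagen, the cartilage relative of type V, was the fibrillar chain that rose. It held 132.8, 134.1 and 157.1 normalized counts in control and 195.4, 250.3 and 209.6 after RSL3 (log2 fold change 0.63 ± 0.13 SE, edgeR adjusted p = 0.00125). The groups did not overlap. COL27A1 held 258.5 to 299.4 normalized counts across the 6 libraries and COL5A3 7.38 to 17.7, and neither was called (log2 fold changes -0.00198 and 0.45, 95% intervals -0.22 to 0.22 and -0.50 to 1.40). COL2A1 and COL11A2, cartilage chains, had no count in any library, which allows up to 3 counts per library, and COL3A1, the usual companion of type I in soft tissue, had 1 count in 1 library. COL24A1 held 0 to 9 counts and was not tested.

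The family's counts were carried mostly by type VI collagen, whose 5 chains took 58.7% of all family counts in control and 56.0% after RSL3. COL6A3, the longest chain, which carries most of the globular domains of the filament, held 49884, 52990 and 53745 normalized counts in control and 38345, 38681 and 42181 after RSL3. It fell 1.31-fold without overlap (log2 fold change -0.39 ± 0.03 SE, edgeR adjusted p = 2.41e-08). COL6A2 went the other way, from 30847, 31706 and 31541 to 35379, 34725 and 34448 (log2 fold change 0.15 ± 0.03 SE, adjusted p = 0.000155). COL6A1 went from 7872, 7870 and 8265 to 7399, 7329 and 7745, a small fall (log2 fold change -0.10 ± 0.03 SE, adjusted p = 0.036). The 3 chains that form the usual type VI trimer therefore did not move together. The call of COL6A1 was lost with 2 surrogate variables (DESeq2 adjusted p = 0.159), with exon length offsets (edgeR adjusted p = 0.0868) and without control replicate 3, RSL3 replicate 1 or RSL3 replicate 2 (adjusted p between 0.134 and 0.176). COL6A5 and COL6A6, chains that can take the place of COL6A3, held 0 to 8 counts and were not tested.

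**Figure D3:**
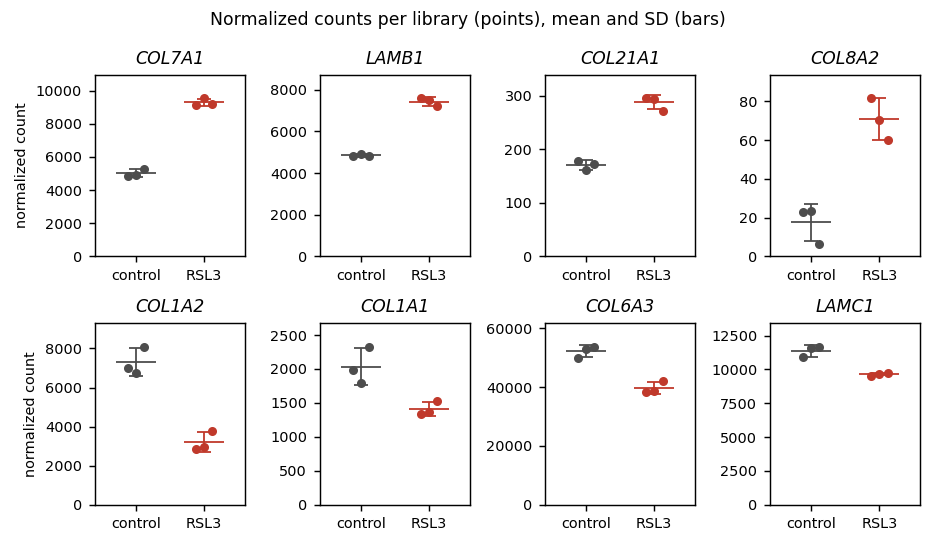
Normalized counts per library for 4 chains that rose (COL7A1, LAMB1, COL21A1 and COL8A2) and 4 that fell (COL1A2, COL1A1, COL6A3 and LAMC1), with points for libraries and bars for the mean and SD (n = 3 per group). In each panel the axis starts at 0 and the groups do not overlap, as for COL7A1 with 4851 to 5300 in control and 9140 to 9542 after RSL3. COL8A2 passed the filter on low counts only through the RSL3 libraries.

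No basement membrane collagen was called, 0 of the 6 tested of 8 members, against 25.6% of all genes tested. The median log2 fold change of the 6 was 0.15. At an unadjusted p under 0.05 the count was 1, COL4A3, against 35.9% of all genes, and DESeq2 called 0 with 0, 1 or 2 surrogate variables, against 22.5%, 21.1% and 15.6% of all genes. COL15A1, which binds collagen fibrils to basement membranes and had the highest level per length in this class, held 1087, 1059 and 1005 normalized counts in control and 1095, 1079 and 1125 after RSL3 (log2 fold change 0.07, 95% interval -0.04 to 0.18). Of the type IV chains, COL4A5 held 317 to 348.3 normalized counts across the 6 libraries (log2 fold change 0.06, 95% interval -0.13 to 0.24). COL4A4 gave a log2 fold change of 0.00 (95% interval -0.29 to 0.30). In COL4A2, COL4A3 and COL4A6 every treated library was above every control library. Their log2 fold changes were 0.24, 0.63 and 0.36, with edgeR adjusted p of 0.229, 0.0541 and 0.146. Groups did not overlap, in either direction, in 38.6% of all genes tested. COL4A3 held 40.9, 40.6 and 59.1 normalized counts in control and 88.5, 64.4 and 65.9 after RSL3, was called under 7 of 18 alternative settings, and shares 6.82% of its exon bases with the divergent transcript MFF-DT, which unstranded counting cannot tell apart from it.

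COL4A1 and COL4A2 form the most widespread type IV trimer and are transcribed in opposite directions from 1 locus on chromosome 13. Their start sites lie at chr13:110307157 (COL4A1) and chr13:110307284 (COL4A2), with 126 bases between them, so that each upstream window covers the start of the other gene. The window of COL4A2 is shown for that shared stretch (RefSeq, GRCh38.p14, chr13:110307034-110307283, plus strand, 5′ to 3′, with its 1 GC box in capitals).
COL4A2 upstream: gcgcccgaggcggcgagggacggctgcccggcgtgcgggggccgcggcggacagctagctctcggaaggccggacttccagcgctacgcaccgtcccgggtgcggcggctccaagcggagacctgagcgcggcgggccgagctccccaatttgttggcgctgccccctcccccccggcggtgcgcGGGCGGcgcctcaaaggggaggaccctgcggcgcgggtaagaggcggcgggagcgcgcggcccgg
COL4A1 held 3, 5 and 8 raw counts in control and 6, 7 and 9 after RSL3. COL4A2 held 215, 100 and 183 in control and 168, 174 and 177 after RSL3. COL4A1 therefore failed the filter on low counts, as did COL18A1 (0 to 5 counts), the chain that carries endostatin.

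Of the short-chain collagens, which form hexagonal lattices, COL8A2 and COL10A1 rose and COL8A1 was not called. COL8A1, the class member with the highest level, held 625.4, 501.8 and 633 normalized counts in control and 632.2, 623 and 612 after RSL3 (log2 fold change 0.08, 95% interval -0.09 to 0.25). COL8A2, the other chain of type VIII, was low in control with 29, 19 and 7 raw counts and held 71, 68 and 60 after RSL3. Its log2 fold change was 2.01 ± 0.33 SE (edgeR adjusted p = 9.93e-05), and the control library with 7 counts stood apart from the others. COL10A1, the chain of hypertrophic cartilage, held 2, 1 and 2 raw counts in control against 9, 13 and 11 after RSL3. The ratio of its summed reads, 33 against 5 and adjusted for library size, was 7.38 with an exact 95% interval of 2.86 to 24.2 that covers counting error only (edgeR adjusted p = 0.0022). COL8A2, COL10A1 and COL5A3 passed the filter on low counts only through the RSL3 libraries, so a test after that filter favours a rise in them. Without the filter, COL8A2 and COL10A1 were also called (edgeR adjusted p = 1.9e-10 and 0.00376). That fit used the same reads and is not separate support for a rise. Both genes lie under a mean of 100 normalized counts and their library values are given because they had the largest log2 fold changes of the tested members.

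The fibril-associated collagens, which decorate fibrils without forming them, had 5 of 10 members tested, of which 2 rose and 0 fell. Over all genes tested, 12.9% rose and 12.7% fell. COL21A1, type XXI, held 178.4, 161.1 and 172.8 normalized counts in control and 295.4, 294.9 and 272.5 after RSL3. The groups were well apart and the rise was 1.68-fold (log2 fold change 0.75 ± 0.11 SE, edgeR adjusted p = 2.69e-05). COL12A1, a collagen of tendon and ligament, went from 1527, 1401 and 1519 to 1769, 1654 and 1619 (log2 fold change 0.18 ± 0.05 SE, adjusted p = 0.00983). Its call was lost with 2 surrogate variables (DESeq2 adjusted p = 0.0647) and without control replicate 2 or RSL3 replicate 1 (edgeR adjusted p = 0.0504 and 0.0726). COL16A1, the member with the highest level in the class, held 4093, 3734 and 3915 in control and 3807, 4012 and 4084 after RSL3, with overlapping groups (log2 fold change 0.02, 95% interval -0.06 to 0.10). COL9A2 and COL14A1 were not called, with log2 fold changes of 0.19 and -0.40. COL9A1 had no count in any library, and COL9A3, COL19A1, COL20A1 and COL22A1 held at most 22 counts in a library and were not tested.

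Of the 4 transmembrane collagens, which stay in the plasma membrane, only COL13A1 was tested. It held 76.2, 75 and 100.7 normalized counts in control and 82.8, 83.1 and 89.8 after RSL3, and the groups overlapped (log2 fold change 0.02, 95% interval -0.37 to 0.40). COL17A1, the hemidesmosome collagen of epithelia, held 1 to 6 counts, and COL23A1 and COL25A1 held 0 to 5. The remaining collagens, COL26A1 and COL28A1, held 0 to 9 counts and were not tested.

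Among the laminins, the direction differed between chains of 1 kind. LAMB1 (ENSG00000091136, chr7:107923799-108003213, minus strand), the beta 1 chain of the earliest laminins of development, held 4814, 4942 and 4826 normalized counts in control. After RSL3 it held 7595, 7513 and 7212. Each group was tight and the mean rose 1.53-fold, from 4861 ± 70.6 to 7440 ± 202 (log2 fold change 0.61 ± 0.03 SE, edgeR adjusted p = 2.3e-11), with a p that ranked 11 of 16105. DLD and ENSG00000273055 share 2.6% of its exon bases. LAMB3, the beta chain of the epithelial laminin of hemidesmosomes, went from 2172, 2289 and 2180 to 1845, 1722 and 1924 and fell (log2 fold change -0.27 ± 0.04 SE, adjusted p = 9.37e-05). LAMB2, the beta chain of synaptic and vascular basement membranes and the beta chain with the highest level, held 7334, 7288 and 7985 in control and 6999, 7094 and 7562 after RSL3 (log2 fold change -0.06, 95% interval -0.14 to 0.02). LAMB4 held 0 to 2 counts and was not tested.

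LAMC1, the gamma chain of most laminins, held 10886, 11559 and 11683 normalized counts in control and 9546, 9677 and 9745 after RSL3 and fell without overlap (log2 fold change -0.24 ± 0.03 SE, edgeR adjusted p = 8.56e-06). LAMC3 held 0 or 1 count and was not tested.

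Of the 5 alpha chains, which carry the integrin-binding globular end, LAMA1 was the 1 called, against 25.6% of all genes tested. It held 6052, 6051 and 6229 normalized counts in control and 6577, 6672 and 6718 after RSL3, a rise of 1.09-fold without overlap (log2 fold change 0.12 ± 0.03 SE, edgeR adjusted p = 0.00461). ENSG00000264475 and ENSG00000265069 share 11.1% of its exon bases, and reads there cannot be told apart without strand. LAMA3, an alpha chain of epithelia, gave a log2 fold change of -0.15 (95% interval -0.33 to 0.04). LAMA4, an alpha chain of vessel walls, held 873.7, 963 and 995.3 in control and 885.1, 833.8 and 789.7 after RSL3, with groups that overlapped (log2 fold change -0.17, adjusted p = 0.0525), and was called under 3 of 18 alternative settings. LAMA5 and LAMA2, the alpha chain of muscle, gave log2 fold changes of -0.07 and -0.09 and were not called.

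Chains that assemble in 1 trimer were then set against each other within each library, where the ratio of raw counts does not depend on the scaling of libraries. The permutation test is exact and two-sided, and with 3 against 3 libraries it cannot go below p = 0.1. COL1A1 to COL1A2 was 0.283, 0.264 and 0.288 in control and 0.465, 0.46 and 0.402 after RSL3, a difference of 0.67 on the log2 scale. Without overlap, COL1A2 thus lost more of its counts than COL1A1. COL6A1 to COL6A2 was 0.255, 0.248 and 0.262 in control and 0.209, 0.211 and 0.225 after RSL3 (log2 difference -0.25). LAMB1 to LAMC1 went from 0.442, 0.428 and 0.413 to 0.796, 0.776 and 0.74 (log2 difference 0.85), the largest shift of the 5 pairs. LAMB2 to LAMC1, the other beta chain against the same gamma chain, went from 0.674, 0.631 and 0.683 to 0.733, 0.733 and 0.776 (log2 difference 0.17). For each of these 4 pairs the exact p was 0.1, the smallest possible, and 0.125 after Benjamini-Hochberg adjustment over the 5 pairs. COL5A1 to COL5A2 overlapped, with 1.5, 1.45 and 1.55 in control and 1.35, 1.57 and 1.52 after RSL3 (log2 difference -0.02, exact p = 0.9). COL4A1 to COL4A2 was given no ratio because COL4A1 averaged 6.33 raw counts.

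**Figure D4:**
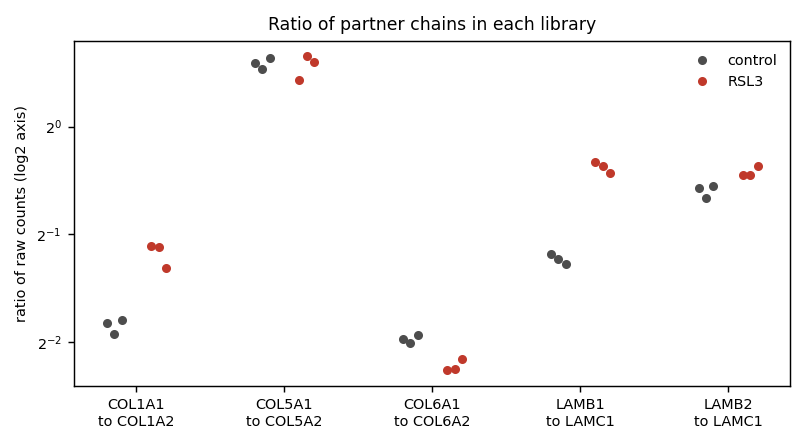
Ratio of raw counts of 5 pairs of partner chains in each library, on a log2 axis, with 3 control and 3 RSL3 points per pair. The groups are apart in 4 pairs, widest for LAMB1 to LAMC1 (0.413 to 0.442 in control, 0.74 to 0.796 after RSL3), and overlap for COL5A1 to COL5A2.

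Levels were compared between genes only per length, as CPM per kilobase of merged exon. In control, COL6A2 was highest at 173 ± 2.53 (SD, n = 3), followed by COL6A3 at 71.3 ± 2.9 and COL6A1 at 42.5 ± 1.42. LAMC1 came next at 39.6 ± 1.54, with its highest library just below the lowest of COL6A1, then LAMB2 at 32.3 ± 1.83 and COL1A2 at 19.8 ± 2.04. After RSL3 the level of COL1A2 was 8.68 ± 1.39, and that of COL7A1 went from 13.3 ± 0.7 to 24.4 ± 0.567. COL7A1 thus stood below COL1A2 in control and above it after RSL3. LAMB1 went from 7.68 ± 0.0809 to 11.7 ± 0.294, just below the level of LAMA1 after RSL3, 12.3 ± 0.158. With the length of the canonical transcript in place of merged exons, the control levels were higher, at 268 for COL6A2, 146 for COL6A3, 42.2 for COL1A2 and 25.3 for LAMB1, and the order of the 3 type VI chains stayed the same. Other places in the order changed: with canonical lengths COL1A2 stood level with LAMC1 (42.2 each) and above LAMB2 (38.9) in control, and after RSL3 LAMB1 (38.5) stood above LAMA1 (20.2).

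**Figure D5:**
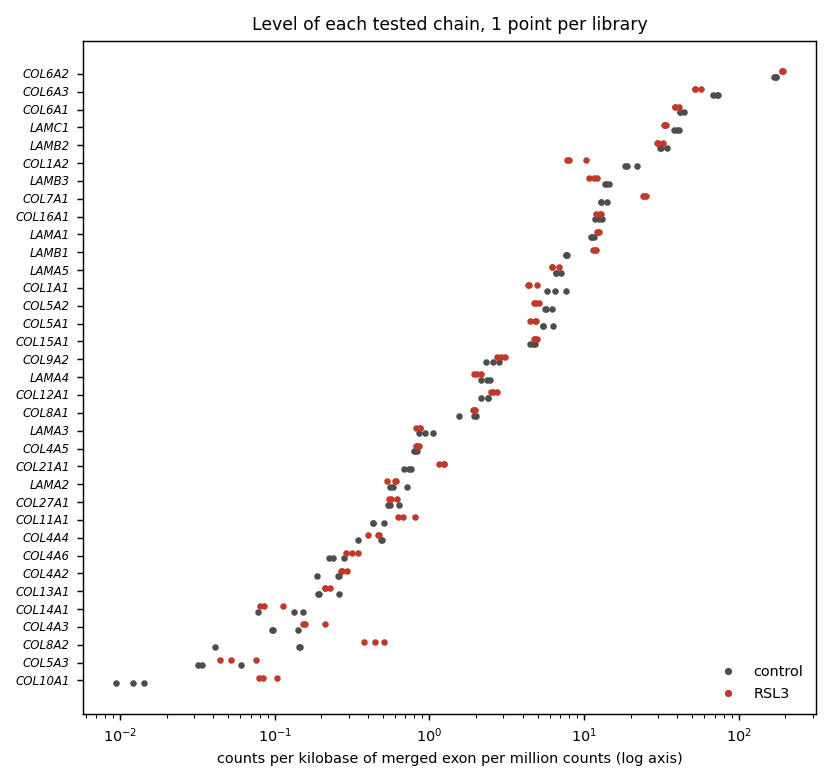
Level of each tested chain named in the text in CPM per kilobase of merged exon, on a log axis, with 1 point per library and the chains ordered by their control mean. The type VI chains lead, with COL6A2 at 173 in control, and COL7A1 (13.3 to 24.4) and COL1A2 (19.8 to 8.68) show well-separated groups.

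Taken as a sum, the 56 members held 0.446%, 0.455% and 0.476% of all counts in control replicates 1 to 3 and 0.422%, 0.424% and 0.44% in RSL3 replicates 1 to 3. All treated libraries were below all controls, with means of 0.459% ± 0.0154 and 0.428% ± 0.00966 (SD, n = 3). The collagens went from 0.348% to 0.318%, and the laminins took 0.11% in control and 0.111% after RSL3. Within the family, the fibrillar chains went from 8.56% to 5.56% of the counts and COL7A1 from 3.22% to 6.35%.

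The other genes of collagen and laminin biology were taken from lists by role. Their calls are read beside the shares over all genes tested, of which 12.9% rose and 12.7% fell. Of the 18 folding and modification genes, 17 were tested, 6 fell and 1 rose, with a median log2 fold change of -0.07. P4HA2, a catalytic subunit of the prolyl hydroxylase that stabilises the helix, fell by 0.26 on the log2 scale (edgeR adjusted p = 1.62e-06), and P3H4, a partner of lysyl hydroxylase, fell by 0.28 (adjusted p = 0.00111). MIA3, which loads the bulky procollagen into carriers at the endoplasmic reticulum and whose product is also called TANGO1, rose (log2 fold change 0.25, adjusted p = 4.88e-06). The collagen chaperone SERPINH1 gave a log2 fold change of -0.03 and was not called. Of the 14 processing and crosslinking genes, 11 were tested, 5 fell and 2 rose, with a median of -0.31. LOX, a lysyl oxidase that crosslinks fibrils, rose (log2 fold change 0.44, adjusted p = 2.06e-08), while its relatives LOXL2 and LOXL1 fell by 0.42 and 0.31 (adjusted p = 1.25e-06 and 0.000177). PXDN, which crosslinks type IV collagen, held 9, 6 and 11 raw counts in control and 43, 21 and 16 after RSL3 and counts as the other rise (log2 fold change 1.79, adjusted p = 0.00622), but it passed the filter only through the RSL3 libraries.

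Of the 10 basement membrane partners, 7 were tested, 2 rose and 2 fell, against 12.9% and 12.7% of all genes tested. The median log2 fold change of the 7 was -0.04. AGRN, the proteoglycan agrin that binds laminins, rose (log2 fold change 0.17, edgeR adjusted p = 0.000188), as did FRAS1, a matrix protein of the epithelial basement membrane, at 67 to 119 raw counts per library (log2 fold change 0.59, adjusted p = 0.0256). SPARC, a collagen-binding glycoprotein, fell by 0.59 (adjusted p = 2.02e-07) and HSPG2, the proteoglycan perlecan, by 0.23 (adjusted p = 0.0482). All 13 receptors were tested, 4 fell and 1 rose, against 12.7% and 12.9% of all genes tested, with a median of 0.00. ITGA2, the alpha subunit of a collagen-binding integrin, fell by 0.77 (adjusted p = 1.02e-09) and its partner subunit ITGB1 by 0.20 (adjusted p = 1.05e-05). ITGA11, a further collagen-binding integrin subunit, rose (log2 fold change 0.30, adjusted p = 0.0239), and DDR2, a receptor kinase for fibrillar collagen with a mean of 34452 normalized counts in control, gave 0.02 and was not called.

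Markers of other cell types were also checked for the whole family, although all libraries came from the U87MG line. The 6 glial or glioma markers summed to 2704 to 2760 CPM in control and 2148 to 2260 after RSL3, with VIM and CD44 called lower. Of the endothelial markers, VWF fell from 67 to 95 raw counts per library to 17 to 43, and PECAM1 and CDH5 held 1 to 8. The 3 summed to 1.96 to 2.87 CPM in control and 0.85 to 1.49 after RSL3. AIF1, a microglial marker, was at 0 in all libraries and PTPRC held 0 or 1, and the 4 microglia or macrophage markers summed to 2.79 to 3.6 CPM in control and 2.25 to 3.45 after RSL3, with none called. Of the neuron markers, SNAP25 fell and SYT1 rose, and the 3 summed to 30.2 to 32.6 CPM in control and 33 to 33.7 after RSL3. The part of these shifts in the results for the collagen and laminin chains was not tested.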

How the data were processed

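Poly(A) RNA of U87MG cells (vehicle or 2 µM RSL3, 3 libraries each) was sequenced in read pairs. Per the study's methods and processing notes, the authors trimmed reads with Trimmomatic 0.36, used HISAT2 for alignment to GRCh38.p4, and counted on exons with HTSeq 0.6.1p1 without regard to strand. The deposited values are raw read counts per Ensembl gene, without normalization. The annotation release is not given in the sources used here.

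The counts were tested with edgeR 4.0.16 (R 4.3.3), after filterByExpr (minimum count 10), TMM scaling, by the quasi-likelihood F test without covariates and Benjamini-Hochberg adjustment over the 16105 genes tested, with a threshold of 0.05. SE is the absolute log2 fold change divided by the square root of F. Symbols, exon lengths and overlaps came from GENCODE v44. The study's own test, DESeq2 after surrogate variable analysis, was run as an alternative (DESeq2 1.42.0, sva 3.50.0; svaseq used genes whose mean normalized count exceeded 1). Other alternatives were other scalings, filters and thresholds, GC content and exon length offsets (loess, span 0.3), a replicate block, and each library left out in turn. The scripts were tested on simulated data.

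The members and gene lists were chosen with earlier results of these data known. All members are named but for an item withheld, which is not reported here and stays in the counts. Values per library are given for members called with a mean of at least 100 normalized counts, for COL7A1 and for the member with the highest level in each class, and COL4A3, LAMA4, COL8A2 and COL10A1 were added after their values were seen, as were SERPINH1 and DDR2. From each list, up to 2 called genes are named per direction, those of lowest p. Replicates of a group differed by more than sampling noise (chi-square per degree of freedom 2.43 to 5.58), so none was 1 library deposited again. Intervals on counts of 0 and on reads cover counting error only.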

Additional observations from a re-analysis of the deposited data

How the results depend on the processing

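Under the alternatives, 13 of the 18 members called kept their call in all 18 settings of scaling, filter, tool, offsets, block and left-out library, and 0 reversed. COL8A2 and COL10A1 kept it in the 17 and 13 settings in which they had an adjusted p. The call was lost in some for 3, COL6A1 and COL12A1 among them, and COL4A3, LAMA4 and LAMA5 gained a call in some. The number called was 14 with DESeq2 and 2 surrogate variables, 17 to 20 in the others, and 17 at an adjusted p under 0.01. With a log2 fold change of 0.5 or more in either direction it was 9, of which 3 were lower, since the other calls were of smaller size. Deviations of same-numbered libraries correlated at 0.028, 0.027 and 0.070, each higher than with other numbers (-0.045 to 0.018). A replicate block called 19 members and 4633 of all genes, against 4123 without it. Whether the replicate numbers pair the samples was not tested. Exon length offsets and GC offsets moved the median of all genes by under 0.1. Over left-out libraries, the log2 difference of COL5A1 to COL5A2 ranged from -0.0684 to 0.0415, and was above 0 without control replicate 3 (0.00165) and without RSL3 replicate 1. Genes called ranged from 4 to 9 in folding and modification, 2 to 4 in basement membrane partners (2 without control replicate 3 or RSL3 replicate 1) and 3 to 5 in receptors (4 and 3 without RSL3 replicate 1 for folding and receptors). Among uncalled members near 0 the sign also changed. COL27A1 was 0.000274 with 10 counts in every library, 0.00105, 0.0013 and 0.00202 with DESeq2 and 0, 1 and 2 surrogate variables, 0.000751 with the replicate block, 0.000937 with GC offsets, 0.0224 with length offsets and 0.00246 with block and GC offsets. COL4A4 was -0.0059 with total counts. Over left-out libraries the log2 fold changes ranged from -0.0518 to 0.0685 in COL27A1, -0.125 to 0.0949 in COL4A4, -0.0132 to 0.132 in COL8A1, -0.0103 to 0.0526 in COL16A1, -0.0555 to 0.175 in COL13A1 and -0.168 to 0.0323 in LAMA2. With canonical transcript lengths, 31 of 36 control levels moved by more than their SD, as merged exons are longer. The causes of the other changes were not tested. Depth limits the 20 members not tested, none above 22 counts in a library.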
